A study of Mus musculus with 4 samples.

Results

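ATAC-seq peaks far from any annotated gene were examined in wild-type mouse bone marrow-derived macrophages (BMDMs). The regions described are the intergenic ones that were open in every library and lay more than 50000 bp from the nearest transcription start site (TSS). They were chosen by presence and position. Peaks sharing 1 bp or more across the 4 libraries were joined into 1 region, which took the annotation and the TSS distance of its highest peak. Of 60710 merged regions, 25442 held a peak in all 4 libraries, and 2783 of these (10.9%) were intergenic and beyond 50000 bp. Because the choice required a peak in every library, regions that appeared or vanished upon IL-4 treatment are not among them, and the presence of a peak is no finding here. All cells were wild type, came from mice of 8 to 12 weeks of age and were differentiated from bone marrow for 6 days with supernatant of L929 fibroblasts, which supplies MCSF, the growth factor of macrophages. The control group (n = 2 libraries) received no IL-4 and the IL-4 group (n = 2 libraries) received 20 ng/ml IL-4 for 1 h. The study's methods call the replicates biological, but neither they nor the labels say whether these came from separate mice. Permutation p-values rest on the spread between these libraries. The p-values and SEs of limma, a linear model for single regions, also draw on the variance over all shared regions. They therefore do not measure a region's own spread alone.

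Macrophages read distal DNA through enhancers, stretches of open chromatin that loop to the promoters of genes that may lie far away. PU.1, C/EBP, RUNX and AP-1 proteins occupy and open many macrophage enhancers, whereas CTCF marks insulators and loop anchors. IL-4 binds its receptor, JAK kinases phosphorylate STAT6, and STAT6 dimers bind palindromes with a spacer between TTC and GAA. STAT6-bound enhancers are known to raise genes of alternative polarization, such as Arg1. The study also described STAT6-bound enhancers that IL-4 represses. It reported lower accessibility at those and higher accessibility at the activated ones. The question addressed by the comparison was whether a short IL-4 pulse alters the openness of chromatin at STAT6 sites.

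Peak height is the deposited peak score, taken to be the −log10 q that the peak caller assigned, which grows with the sequencing depth of a library. Depth is unknown since no read counts were used, and no interval on counts can be given. Single libraries held 39462 to 45250 peaks with median heights from 6.41 to 8.04. Promoter peaks were present in all 4 libraries for 6 of 8 macrophage markers (Adgre1, Cd68, Fcgr1, Mertk, Spi1 and Lyz2), but not for Csf1r and Itgam. Of 18 markers of other bone marrow and connective tissue cells, S100a8 had a promoter peak in 4 libraries, Kit in 2 and the other 16 in none. More cells with an open site and a site more open in each cell cannot be told apart in such bulk libraries.

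Sequences are shown first of members past the threshold in either fit described below, the Klf4 member excepted. Examples of the largest increases and decreases are shown too, since the motifs that they hold recur in the comparisons. Each is the 300 bp window around the middle of the highest peak, on the plus strand of GRCm38.p6, the assembly that underlies mm10. Capitals mark matches, on either strand, to the letters searched, which were TTCNNNNGAA (STAT6), TTCNNNGAA (the spacing of other STAT proteins), GAGGAAGT (PU.1), TGACTCA (AP-1), TTGCNNAA (C/EBP), AACCACA (RUNX), CCANNAGNNGGC (CTCF), GGGANTTTCC (NF-κB), GAAANNGAAA (ISRE, bound by IRF factors), CACGTG (E-box) and GGGCGGG (GC box). Matches may overlap, as the STAT and ISRE letters did in the Akap7 window. Each window is named by the gene of its nearest TSS.
Tet2 member, chr3:133758483-133758782: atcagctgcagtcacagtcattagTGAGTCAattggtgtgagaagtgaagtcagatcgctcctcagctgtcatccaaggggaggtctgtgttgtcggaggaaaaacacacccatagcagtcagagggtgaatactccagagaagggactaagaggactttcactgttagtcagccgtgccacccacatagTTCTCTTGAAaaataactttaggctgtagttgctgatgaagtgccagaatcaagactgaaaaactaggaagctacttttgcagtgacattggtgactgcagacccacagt
Sep15 member, chr3:144627960-144628259: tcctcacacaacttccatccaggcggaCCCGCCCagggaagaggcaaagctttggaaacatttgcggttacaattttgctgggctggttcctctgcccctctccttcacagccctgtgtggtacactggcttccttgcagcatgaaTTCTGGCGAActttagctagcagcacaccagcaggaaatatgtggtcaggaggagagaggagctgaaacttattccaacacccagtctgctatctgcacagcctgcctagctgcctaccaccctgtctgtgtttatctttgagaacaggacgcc
Akap7 member, chr10:25128483-25128782: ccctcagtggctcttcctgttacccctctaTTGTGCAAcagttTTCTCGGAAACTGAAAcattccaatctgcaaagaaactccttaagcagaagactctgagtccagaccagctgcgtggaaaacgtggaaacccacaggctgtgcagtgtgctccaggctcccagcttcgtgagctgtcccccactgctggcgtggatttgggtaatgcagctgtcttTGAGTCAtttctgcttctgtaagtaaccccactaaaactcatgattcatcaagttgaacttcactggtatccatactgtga
1700012I11Rik member, chr15:67413715-67414014: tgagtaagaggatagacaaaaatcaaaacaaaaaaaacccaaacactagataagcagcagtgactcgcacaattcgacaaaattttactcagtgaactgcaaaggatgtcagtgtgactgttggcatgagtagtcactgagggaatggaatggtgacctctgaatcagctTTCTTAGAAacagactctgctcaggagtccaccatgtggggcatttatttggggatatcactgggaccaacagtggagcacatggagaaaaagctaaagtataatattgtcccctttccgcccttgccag
Epas1 member, chr17:86685331-86685630: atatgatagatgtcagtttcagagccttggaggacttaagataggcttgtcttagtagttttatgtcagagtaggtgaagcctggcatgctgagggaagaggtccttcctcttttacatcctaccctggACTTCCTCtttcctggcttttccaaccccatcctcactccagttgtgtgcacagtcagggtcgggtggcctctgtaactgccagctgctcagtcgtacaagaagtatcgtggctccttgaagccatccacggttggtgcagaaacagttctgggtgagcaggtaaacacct
Mir3089 member, chr2:30658435-30658734: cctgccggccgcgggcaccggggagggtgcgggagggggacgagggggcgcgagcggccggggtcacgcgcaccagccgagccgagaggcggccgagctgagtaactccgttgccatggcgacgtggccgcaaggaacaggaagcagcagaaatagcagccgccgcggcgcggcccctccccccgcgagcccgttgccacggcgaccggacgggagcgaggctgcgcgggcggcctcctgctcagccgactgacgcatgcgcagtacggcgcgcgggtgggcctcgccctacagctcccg
Ppap2b member, chr4:105248231-105248530: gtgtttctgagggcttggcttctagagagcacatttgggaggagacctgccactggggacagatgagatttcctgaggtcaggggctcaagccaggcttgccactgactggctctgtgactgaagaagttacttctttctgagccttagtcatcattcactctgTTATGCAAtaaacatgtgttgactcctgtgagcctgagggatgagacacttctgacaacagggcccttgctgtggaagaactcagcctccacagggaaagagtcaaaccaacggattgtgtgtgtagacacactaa

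The height of 1 member rose upon IL-4 treatment. It lay at −214243 bp from the TSS of Tet2 (chr3:133758400-133758827; negative distances are upstream), the gene of a dioxygenase that oxidises methylated cytosine in DNA demethylation, and outside every RefSeq gene. Its height was 11.5 and 12.3 in controls and 39.0 and 24.2 after IL-4. Both IL-4 libraries lay far above both control libraries, with a log2 change of 1.55 ± 0.30 (SE) after quantile normalisation and an adjusted p = 0.0300 in limma over all 25442 shared regions. The window held the STAT6 letters and an AP-1 match. Leaving out a library left 1 in its group, so the call could not be checked that way. The log2 change was 1.34 and 1.71 without IL-4 replicates 1 and 2, and 1.45 and 1.71 without control replicates 1 and 2. The limma adjusted p was 0.523 without a variance trend. Of all shared regions, 0.0157% were called higher and 0.00786% lower in the main fit, against 1 and 0 of the 2783 members. Without adjustment, 186 members (6.68%) had a limma p under 0.05 with higher heights and 135 (4.85%) with lower heights, compared to 4.12% and 4.15% of all shared regions.

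With the replicate number as a block, limma called 5 members higher and none lower, against 0.0432% higher and 0.0118% lower over all shared regions. The labels do not say what replicates of the same number share, and deviations of same-numbered libraries correlated with r = 0.007 over all shared regions. One of the members added by the block lay at −279350 bp from Klf4 (chr4:55811670-55812033), whose product is a zinc finger factor of alternative polarization. Its height was 7.10 and 10.2 in controls and 24.4 and 20.5 after IL-4, a log2 change of 1.59 ± 0.37 (SE; limma adjusted p = 0.146, with the block 0.0478). The member at 57683 bp from Sep15 (chr3:144627942-144628350), which encodes a selenoprotein of the endoplasmic reticulum, had heights of 13.5 and 10.4 in controls and 24.8 and 29.6 after IL-4. Its log2 change was 1.37 ± 0.32 (SE; limma adjusted p = 0.130, with the block 0.0478). Both regions were outside RefSeq genes and held the STAT6 letters, and in both the groups did not overlap. When peaks within 500 bp were merged, however, the log2 change at Sep15 was 0.22 (limma adjusted p = 0.871).

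The other 2 members past the threshold with the block held the 3-base STAT spacing instead. At 170530 bp from Akap7 (chr10:25128384-25128905), an anchoring protein of protein kinase A, the height was 13.3 and 12.5 in controls and 29.9 and 27.8 after IL-4. The log2 change was 1.33 ± 0.30 (SE; limma adjusted p = 0.0945, with the block 0.0396). This region lay inside the RefSeq gene Gm51762 and on an LTR repeat. At 187096 bp from 1700012I11Rik (chr15:67413696-67414034), the height went from 4.14 and 3.6 to 18.7 and 12.7, with a log2 change of 2.24 ± 0.50 (SE; limma adjusted p = 0.0945, with the block 0.0351). When peaks within 500 bp were merged, the log2 change at 1700012I11Rik was 1.76 (limma adjusted p = 0.207). All 5 members therefore held a STAT palindrome of either spacing within the window, compared to 544 of the 2783 members (19.5%). This was seen after their values were known and was not tested.

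**Figure D1:**
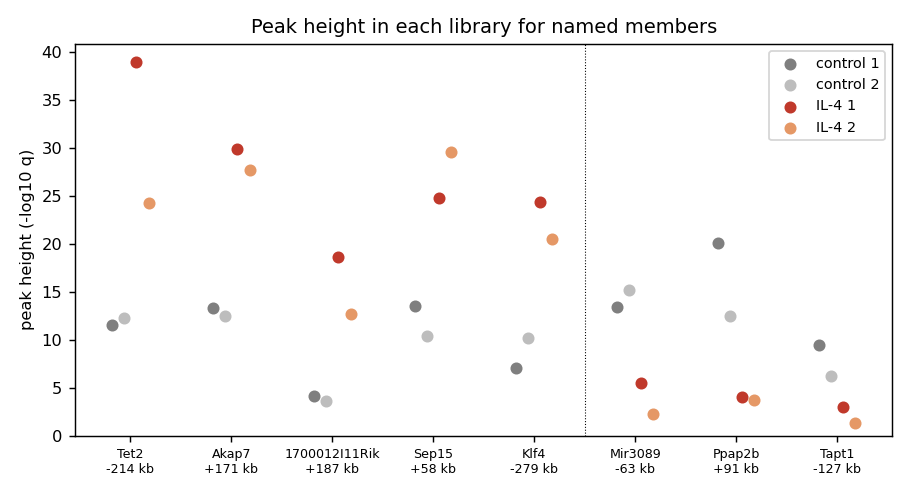
Peak height (−log10 q) in each of the 4 libraries for the 5 members past the threshold with or without the block (left of the dotted line) and for the 3 members with the largest decrease, labelled by nearest gene and distance. The IL-4 points of the Tet2 member stand at 39.0 and 24.2 against 11.5 and 12.3 in controls, and the IL-4 points of the 3 members on the right lie below their control points.

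The largest increases and decreases among members with non-overlapping groups were not called by limma in either fit, with the exception of the 1700012I11Rik member. At −68383 bp from Epas1 (chr17:86685354-86685603), which encodes HIF-2α, the height was 5.12 and 3.41 in controls and 14.7 and 12.6 after IL-4 (log2 change 1.95 ± 0.51, SE; limma adjusted p = 0.179). This region lay inside the RefSeq gene Gm18832. The members near Nnt, Foxi3 and 1700019E08Rik had log2 changes of 1.85, 1.83 and 1.76, with limma adjusted p from 0.244 to 0.277, and that near Nnt was 0.47 when peaks within 500 bp were merged. The increase near Zfp386 of 1.75 concerned a member of 151 bp at −80002 bp, for which 23.1% of the 31-base words of the region occur once in the genome. It was 0.75 without control replicate 1 and 2.76 without control replicate 2. At the other end, the member at −62625 bp from Mir3089 (chr2:30658364-30658771) was a CpG island within the lncRNA gene Gm14486. It lay at −2634 bp from a RefSeq TSS of Gm32316, and the GC content of its window was 76.3%. Its height was 13.5 and 15.2 in controls and 5.48 and 2.29 after IL-4. Its log2 change was −1.82 ± 0.52 (SE; limma adjusted p = 0.244). The Ppap2b member (91034 bp; chr4:105248224-105248507), near the gene of a lipid phosphate phosphatase, had heights of 20.1 and 12.5 in controls and 4.07 and 3.73 after IL-4, a log2 change of −1.81 ± 0.50 (SE; limma adjusted p = 0.222). The members near Tapt1, Tril, Cwc27 and Mdm1 had log2 changes of −1.78, −1.69, −1.59 and −1.57, of which that near Cwc27 became 0.72 when peaks within 500 bp were merged. Tril encodes a partner of Toll-like receptors, and its member at 112811 bp was the sole one of the 6 decreases with the STAT6 letters.

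The members as a group were compared between treatments by library medians. The median normalised log2 height of the members was 3.38 and 3.35 in controls and 3.43 and 3.42 after IL-4. The libraries of the groups did not overlap, and the difference of 0.06 had an exact permutation p = 0.3333, which is the smallest p that 2 against 2 libraries allow (two-sided). In shared intergenic regions within 50 kb, the same medians were 3.35 and 3.31 in controls and 3.29 and 3.30 after IL-4. The excess of the members over these nearer regions was 0.03 and 0.03 before and 0.14 and 0.13 after IL-4 (exact permutation p = 0.3333). The median of the fitted changes was 0.02 for the members, −0.04 for the nearer intergenic regions and 0.00 for all shared regions. On the normalised scale, by which overlap is judged for all counts given here, both IL-4 libraries were above both control libraries in 615 members (22.1%) and below in 543 (19.5%), against 19.2% and 18.6% of all shared regions.

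**Figure D2:**
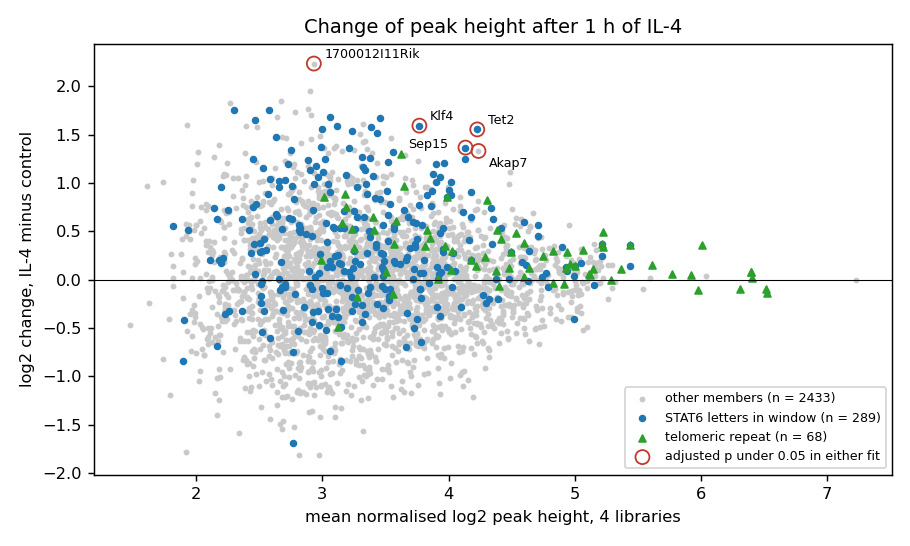
Log2 change of height (IL-4 minus control, y axis) against the mean normalised log2 height over 4 libraries (x axis) for the 2783 members. Blue points are the 289 members with the STAT6 letters, green triangles the 68 members on telomeric repeats, and red circles the 5 members with an adjusted p under 0.05 in either fit. The circled points lie at changes from 1.33 to 2.24, and low members spread more widely than tall ones.

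Members that held the STAT6 letters were lower than the rest before IL-4 and higher after it. The letters were in the window of 289 members. Their median height was 10.7 and 9.45 in controls and 12.2 and 9.50 after IL-4, while that of the 2494 members without the letters was 12.4 and 10.5 in controls and 10.9 and 8.69 after IL-4. On the normalised log2 scale, members with the letters minus members without them gave −0.23 and −0.15 in controls and 0.17 and 0.13 after IL-4. The contrast shifted by 0.34 and its sign differed between the groups (exact permutation p = 0.3333, the smallest possible; 0.611 after Benjamini-Hochberg adjustment over 11 motifs). The median fitted change was 0.29 with the letters and −0.01 without. Both IL-4 libraries were above both control libraries in 123 of the 289 members (42.6%) and below in 20 (6.92%), against 19.2% and 18.6% of all shared regions. In the 474 nearer intergenic regions with the letters, the contrast was −0.19 and −0.17 in controls and 0.14 and 0.18 after IL-4, a shift of 0.34, and 166 of them (35.0%) were higher without overlap and 58 lower.

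The 3-base STAT spacing gave contrasts of the same signs with a smaller shift. Its 284 members gave −0.14 and −0.04 in controls and 0.15 and 0.11 after IL-4, a shift of 0.22 (exact permutation p = 0.3333). This shift was 0.02 (exact permutation p = 1.0) with peaks above the pooled median score alone and 0.10 with the letters sought in the whole region. The 29 members with both spacings had a median fitted change of 0.45, and the 2239 members with neither had −0.03. For AP-1, the contrast was 0.21 and 0.13 in controls and 0.12 and 0.12 after IL-4. Members with AP-1 letters were thus taller in all 4 libraries (mean 0.15; exact sign-flip permutation p = 0.125, the smallest that 4 libraries allow), with a shift upon IL-4 of −0.05. With peaks above the pooled median score alone, this mean was −0.01. C/EBP letters went with a shift of −0.06 and PU.1 letters with a shift of 0.11. The groups did not overlap for STAT6, STAT, PU.1, AP-1, C/EBP and NF-κB, and overlapped for RUNX, CTCF, ISRE, E-box and GC box. Each of the former had the smallest p (exact permutation p = 0.3333, 0.611 after adjustment), and NF-κB rested on 10 members. Lack of overlap alone therefore sets none of these motifs apart.

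**Figure D3:**
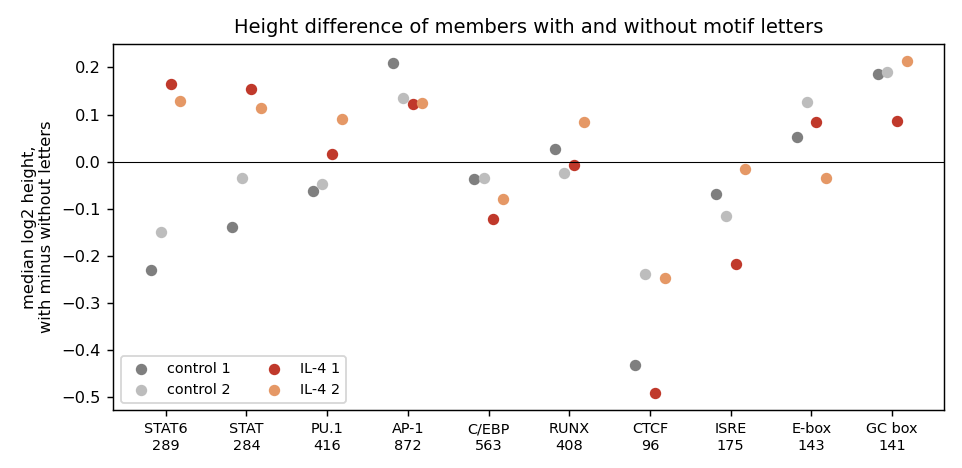
Median normalised log2 height of members with the motif letters minus members without them (y axis) in each library, for 10 motifs with the number of members that hold them under each name. STAT6 runs from −0.23 and −0.15 in controls to 0.17 and 0.13 after IL-4, and the CTCF points lie between −0.49 and −0.24 in all libraries.

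The same motifs were counted among the members ordered by fitted change, as a description of how the extremes are made up. Of the 100 members with the largest increases, 37 held the STAT6 letters and 56 held either STAT spacing. Of the 100 with the largest decreases, 1 held the STAT6 letters and 8 held either spacing. AP-1 letters were in 28 of the 100 largest increases and in 38 of the 100 largest decreases, and C/EBP letters in 15 and 25. Against these counts, the shares over all members were 10.4% for STAT6, 31.3% for AP-1 and 20.2% for C/EBP.

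In motif content the members lay nearer to other distal regions than to promoters. AP-1 letters were the most frequent and were found in 872 members (31.3%, Wilson 95% interval 29.6 to 33.1), compared to 29.03% of nearer intergenic (27.8 to 30.3), 28.9% of intronic and 4.12% of promoter regions. C/EBP letters were in 20.2% of the members (18.8 to 21.8) and 17.5% of nearer intergenic regions (16.4 to 18.5), and RUNX letters in 14.7% (13.4 to 16.0) and 12.4% (11.5 to 13.3). For C/EBP and RUNX the intervals did not overlap, whereas those of AP-1, PU.1 (14.9% and 14.04%) and STAT6 (10.4%, 9.31 to 11.6, and 9.33%, 8.56 to 10.2) did. Over all shared regions the STAT6 share was 7.77%. The letters alone do not show that STAT6 was bound, and these libraries did not measure binding. GC box letters, bound by SP and KLF factors, were in 5.07% of the members, 9.98% of nearer intergenic regions and 54.6% of promoters. NF-κB letters were in 10 members (0.36%). The 3-base STAT spacing was in 10.2% of the members, 10.5% of nearer intergenic regions and 8.42% of all shared regions. In the same order, the ISRE letters were in 6.29%, 5.28% and 4.33%, and the E-box letters in 5.14%, 5.69% and 7.80%. The intervals cover counting error over regions of these libraries and no test was made.

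CTCF letters were found in 96 members (3.45%, 2.83 to 4.19), compared to 4.96% (4.40 to 5.59) of nearer intergenic regions. Over all shared regions the share was 3.74%, and it was 2.25% for the members left when peaks above the pooled median score alone were used. Members with the letters were lower than the rest in all 4 libraries, by −0.43 and −0.24 in controls and −0.49 and −0.25 after IL-4 on the normalised log2 scale (mean −0.35; exact sign-flip permutation p = 0.125). With peaks above the pooled median score this mean was 0.05. The tallest member with the letters, picked after its values were seen, lay at −93523 bp from Ivns1abp (chr1:151250722-151251206), inside the lncRNA gene Gm46162. It was 351 bp from a RefSeq TSS of Gm46162. Its height was 34.4 and 27.9 in controls and 34.1 and 39.0 after IL-4, and its window held AP-1 and E-box letters as well.
Ivns1abp member, chr1:151250825-151251124: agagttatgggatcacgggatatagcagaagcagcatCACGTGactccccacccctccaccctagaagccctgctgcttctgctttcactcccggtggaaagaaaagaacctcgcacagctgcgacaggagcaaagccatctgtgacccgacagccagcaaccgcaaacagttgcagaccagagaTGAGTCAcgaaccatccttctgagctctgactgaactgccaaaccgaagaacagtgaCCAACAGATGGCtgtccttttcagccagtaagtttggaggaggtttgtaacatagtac

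**Figure D4:**
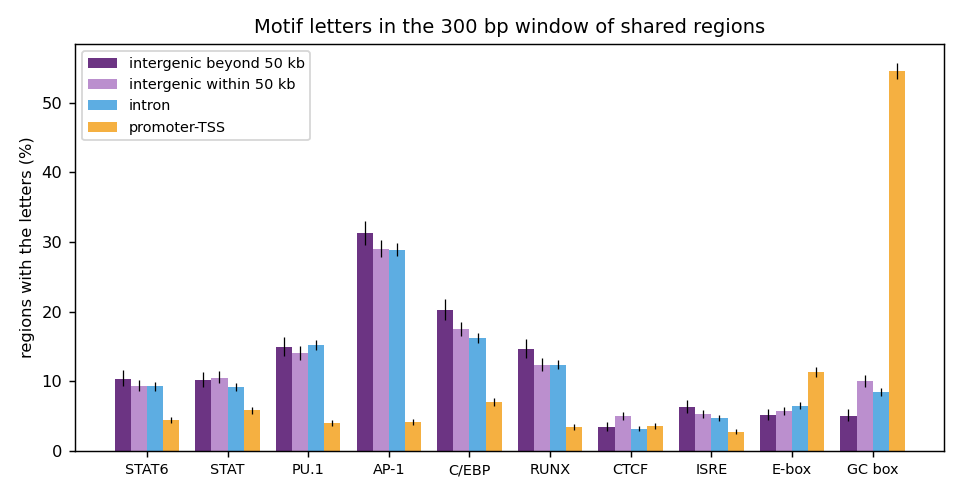
Share of shared regions (%, y axis) that hold the letters of 10 motifs in the 300 bp window, for the 2783 members, 5078 nearer intergenic, 8538 intronic and 7919 promoter regions, with Wilson 95% intervals. AP-1 letters are in 31.3% of the members and in 4.12% of promoters, and GC box letters in 5.07% and 54.6%.

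In height and length the members were compared with other classes of shared regions. The median height of the members was 12.1 and 10.4 in controls and 11.1 and 8.78 after IL-4, that of nearer intergenic regions was 11.8, 10.1, 10.2 and 7.95 in the same order, and that of promoters 14.4, 13.2, 13.6 and 10.8. The difference in median log2 height from nearer intergenic regions was 0.03, 0.03, 0.13 and 0.14, positive in 4 of 4 libraries (mean 0.08 ± 0.06, SD; exact sign-flip permutation p = 0.125, adjusted 0.1875 over 6 comparisons). The mean was 0.05 (exact sign-flip permutation p = 0.5) for members with at least 90% unique words, an alternative chosen after seeing the data, and 0.03 (exact p = 0.25) with peaks above the pooled median score. Median peak length was 230, 223, 215 and 200 bp, against 236, 224.5, 216 and 196 bp in nearer intergenic regions, a mean difference of −1.13 bp (± 4.09, SD; exact sign-flip permutation p = 0.625). With peaks above the pooled median score this difference was −10.75 bp (exact p = 0.125). Promoter peaks were longer by 65 to 93 bp. Of the regions of this kind found in any library, 35.8% were found in all 4, which was near to the 36.5% of nearer intergenic and 34.9% of intronic regions and below the 69.4% of promoters. Median GC content of the window was 46.7% for the members, 49.3% for nearer intergenic regions and 64.3% for promoters, and 71 members (2.55%) were CpG islands in the deposited annotation.

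**Figure D5:**
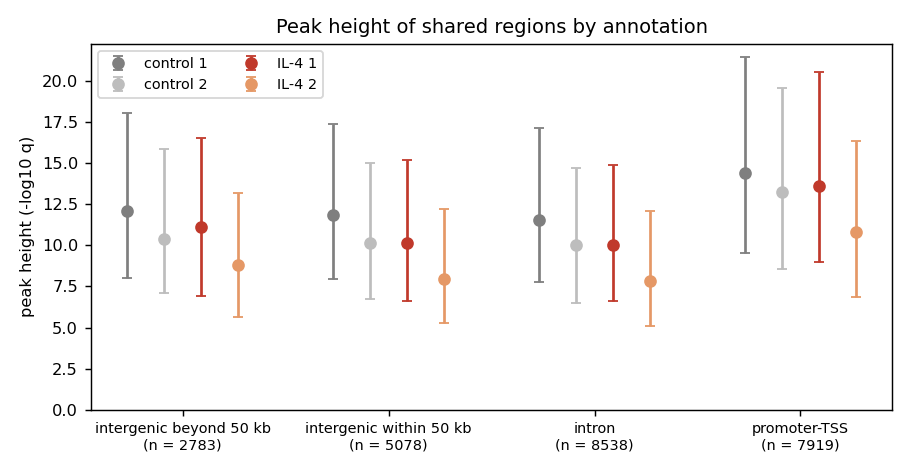
Median peak height (points; −log10 q) with the lower and upper quartiles (bars) in each library for 4 annotation classes of shared regions. The members have medians from 8.78 to 12.1, near to those of nearer intergenic and intronic regions, and promoter regions lie above them in every library.

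The label of these regions depends on the annotation. In the deposited annotation the median distance to a TSS was 104803 bp, with 1519 members upstream and 1264 downstream of it, and 2779 members held only intergenic peaks beyond 50000 bp. In the RefSeq annotation of GRCm38.p6, however, 804 members (28.9%) were inside a gene, of which 517 were inside lncRNA genes and 163 inside protein-coding genes. Counting every RefSeq transcript, predicted models included, 1087 members (39.1%) remained beyond 50000 bp of a TSS, whereas counting curated transcripts 2369 (85.1%) did. For 257 members the TSS of some RefSeq transcript lay within 1 kb. Outside the genes of both RefSeq and GENCODE vM21 lay 1741 members (62.6%). At the threshold itself, the closest members were at 50006 bp from Fos, −50010 bp from Mgat4a and −50011 bp from Pole4, with heights from 3.76 to 13.7. The regions just outside it were at −49997 bp from Apbb1ip, −49992 bp from Mir760 and −49986 bp from Foxp1, with heights from 6.46 to 35.0. The farthest members lay at 1472508 bp from Gm20268, 1272133 bp from Fam5c and −1258840 bp from Gm20871, on rRNA, telomeric and ERVK repeat annotation in that order.

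Some members proved to lie in antigen receptor loci, which rearrange in lymphocytes. Zfp386 was the gene with the most members, 36, and all of them were inside the immunoglobulin heavy chain locus (Igh) of RefSeq. In all, 46 members were within Igh (chr12:113306009-115980854), of which 34 were centred within 500 bp of the start of a V segment, and 6 more lay at V segments of the T cell receptor alpha locus and 3 in the immunoglobulin kappa locus. Heights in Igh had medians of 12.5 and 11.6 in controls and 12.8 and 10.3 after IL-4 and reached 37.1, 40.1, 39.4 and 34.2 in the same order. The median fitted change was 0.10, and the groups did not overlap upward in 14 and downward in 5 of the 46, against 19.2% and 18.6% of all shared regions. V segments include many similar copies. In 30 of the 46 members under 50% of the 31-base words were unique in the genome, so that the place of these peaks is uncertain. The B cell markers Cd79a and Pax5 had no promoter peak in any library, and the part of other cells in these peaks was not tested.

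The tallest members were on repeated sequence. The tallest of all lay at −56893 bp from 4933402J10Rik (chr5:60042665-60043127), with heights of 148.0 and 139.2 in controls and 159.8 and 154.8 after IL-4. Of its 31-base words, 40.2% are also found in the mitochondrial genome and 25.9% are unique in the nuclear genome. The next were arrays of the telomeric hexamer TTAGGG near Csf2ra (−102999 bp), Asmt, Wls and Cr2, with heights from 74.7 to 106.2, and 8 of the 10 tallest members were of this kind. The window of the tallest member is shown because repeated sequence heads the list of heights, and it held none of the letters searched.
4933402J10Rik member, chr5:60042745-60043044: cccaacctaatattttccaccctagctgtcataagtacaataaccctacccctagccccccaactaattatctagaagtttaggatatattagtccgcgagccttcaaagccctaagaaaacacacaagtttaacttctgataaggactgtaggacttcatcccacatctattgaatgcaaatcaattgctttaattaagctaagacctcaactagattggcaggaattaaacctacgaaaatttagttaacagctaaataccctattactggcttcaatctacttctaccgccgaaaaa

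In all, 68 members were annotated as telomeric repeats in the deposited files, on 19 chromosomes. There were 12 within 200000 bp of a chromosome end, with median heights of 59.0 and 68.0 in controls and 73.1 and 64.1 after IL-4 and a median fitted change of 0.03. The 56 farther inside had median heights of 20.5 and 18.5 in controls and 24.7 and 18.8 after IL-4, with a median fitted change of 0.29. Groups did not overlap upward in 31 and downward in none of these 56, against 19.2% and 18.6% of all shared regions. In the 77 telomeric regions that were not members, 42 were higher without overlap and 3 lower, with a median change of 0.25. This pattern was noticed after the data were seen and was not tested, and none of the telomeric members passed the limma threshold. In the telomeric members a median of 63.5% of the 31-base words were unique in the genome. Over other repeats, 289 members lay in LTR elements (10.4%, against 10.3% of nearer intergenic regions), with a median change of −0.07, and 126 in LINEs, with a median change of 0.02. The 64 in SINEs had −0.06 and the 14 on satellites 0.03. Increases were not limited to telomeric repeats. The 8 members on rRNA repeats had a median change of 0.36, with 4 higher and 0 lower without overlap. The 10 on low-complexity sequence had 0.26, with 4 higher and 1 lower.

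Members were spread over 1350 nearest genes, of which 744 had 1 member and 97 had 5 or more. Behind Zfp386 came Btg1 (16 members), Klf4 and Maf (15 each), Zfp608 (14), 1700016G22Rik and Gm1653 (13 each) and Marcks (12). Btg1 encodes an anti-proliferative factor, and its members spanned 506 kb from −322080 bp to 183965 bp. Their median change was −0.18, from −1.37 to 0.43, with 4 of the 16 lower without overlap and none higher, against 18.6% and 19.2% of all shared regions, and 7 held AP-1 letters. Maf, a bZIP factor of macrophages, had members from −71724 bp to 292652 bp with a median change of −0.16. Its tallest at 56454 bp had heights of 32.8 and 24.4 in controls and 33.0 and 27.0 after IL-4. Marcks, a substrate of protein kinase C, had a median change of −0.24, but its member at −93211 bp, which held the STAT6 and PU.1 letters, had heights of 12.3 and 10.6 in controls and 20.0 and 19.7 after IL-4 (log2 change 1.01).

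Klf4, which the study took as an IL-4-activated gene, had 15 members, all upstream, from −581635 bp to −91079 bp. Their median change was 0.21, with 6 higher without overlap, 1 lower and 8 overlapping, against 19.2% and 18.6% of all shared regions. Besides the member at −279350 bp, those at −538449 bp and −209113 bp had log2 changes of 1.18 and 1.08. The former had heights of 6.28 and 4.58 in controls and 10.7 and 9.83 after IL-4, and the latter 9.52 and 7.41 and then 14.03 and 16.2. The other STAT6 carrier, at −272997 bp, had a log2 change of 0.53 with heights of 5.53 and 6.15 in controls and 8.82 and 5.65 after IL-4. Of the 5 members of Tet2, the 4 nearer to the gene had log2 changes from −0.23 to 0.25 and none held the STAT6 letters. Both IL-4 libraries were above both control libraries in 2 of these 4.

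Gene lists were counted by nearest gene, though a nearest TSS at such distances need not be the gene that a region acts on. The counts of each list without overlap stand against 19.2% higher and 18.6% lower over all shared regions. For the IL-4 receptor signalling and feedback genes, 1 of 18 genes (Socs6) had members, 2 in number, with log2 changes of −0.54 and −0.04. For alternative activation, 3 of 20 genes had 19 members, of which 7 were higher and 1 lower without overlap (median change 0.17). Of these, 15 were the Klf4 members described above, with 6 of the higher ones and the lower one. Besides Klf4, the Egr2 member at −54269 bp had heights of 11.2 and 3.04 in controls and 18.03 and 9.20 after IL-4 (log2 change 1.38 ± 0.51, SE; limma adjusted p = 0.411). The macrophage lineage factors had 43 members at 9 of 20 genes, with 7 higher and 9 lower and a median change of −0.16. The largest was −1.10 ± 0.47 (SE; limma adjusted p = 0.538) at −84317 bp from Zeb2, a repressor, where heights were 12.0 and 18.9 in controls and 4.99 and 7.24 after IL-4. It was −0.67 without control replicate 2 and −0.64 without IL-4 replicate 1. The AP-1 factors had 16 members at 5 of 16 genes, with 2 higher and 6 lower. The Bach1 member at −62861 bp, however, which held both STAT spacings, had heights of 9.09 and 5.33 in controls and 20.1 and 14.5 after IL-4 (log2 change 1.51 ± 0.43, SE; limma adjusted p = 0.236). Bach1 encodes a repressor that responds to heme.

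Inflammatory mediators and sensors had 6 members at 4 of 23 genes, with 1 higher and 2 lower. The member at 68392 bp from Tnfaip3, an inhibitor of NF-κB signalling, had heights of 14.7 and 18.6 in controls and 9.12 and 7.46 after IL-4 (log2 change −0.78 ± 0.41, SE; limma adjusted p = 0.630), and the change was −0.51 without control replicate 2. Of the genes that the study tested as IL-4-repressed, Fos alone had members, 3 with log2 changes from −0.35 to 0.31, of which the lowest ranged from −0.55 to −0.15 when a library was left out. Of those tested as activated, Klf4 had 15 and Edn1, which encodes endothelin-1, had 3, of which 7 in 18 were higher without overlap. The Klf4 members are the same as those counted for alternative activation. DNA demethylation and methylation genes had members at Tet2 alone. Over all lists, 1 member was called by limma and 2 with the block, at Tet2 and Klf4, against 0.0157% and 0.0432% of all shared regions called higher. The lists were chosen with earlier results of these data known, so these counts only describe where the called members lie.

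Members also lay in runs. With gaps of at most 10000 bp, 968 members (34.8%) fell into 426 runs of 2 or more, and 22 runs had 4 or more. The longest, 7 members within 3746 bp (chr14:19415697-19419442), was on major satellite repeats, with median heights of 16.6 and 26.0 in controls and 18.6 and 17.8 after IL-4. The next run had 6 members over 24186 bp (chr2:167753885-167778070) near A530013C23Rik and partly inside the lncRNA gene Gm32287. Its median heights were 8.79 and 10.96 in controls and 5.62 and 4.87 after IL-4, and 5 of the 6 were lower without overlap (median change −0.42). None of the 6 held the STAT6 letters. The third, 5 members at 129200 to 150940 bp from Zfp608, had a median change of −0.31 with 2 lower without overlap. Runs with mostly lower members were noticed after their values were seen and were not tested.

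Distance beyond the threshold was divided into bins. The 1317 members up to 100000 bp had a median fitted change of −0.02, the 863 up to 200000 bp 0.01, the 456 up to 500000 bp 0.09 and the 147 beyond that 0.14. The last bin held 29 of the Igh members and 11 of the telomeric members. GC box letters were in 6.91%, 4.63%, 1.54% and 2.04% of the members of these bins, and AP-1 letters in 30.4%, 32.4%, 32.7% and 28.6%. By chromosome, the members made up from 4.58% of shared regions on chromosome 11 to 17.96% on chromosome 10 among the autosomes, and 9 of 18 on chromosome Y.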

How the data were processed

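The members and gene lists were chosen with earlier results of these data known. The authors aligned ATAC-seq reads to mm10 with BWA 0.7.10, called peaks in each library with MACS2 2.0.10 and annotated them with HOMER 4.2 (versions per the submitters' processing notes). Their methods also remove blacklisted regions and compare read coverage with DiffBind, which was not run here because it needs reads. Handling of duplicates and of the Tn5 offset is not given in the sources used here. The deposited scores carry no stated unit and were read as −log10 of the MACS2 q-value, since the lowest were 1.30 to 1.32. The authors' methods name a q cut-off of 0.01, a score of 2, and 23 members had a lower score in a library.

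Regions came from the autosomes and both sex chromosomes, and bedtools 2.31.1 gave the same 60710. The highest score of a library in a region was put on the log2 scale, quantile-normalised across libraries and compared by limma 3.58.1 (R 4.3.3; eBayes with a trend, Benjamini-Hochberg over all 25442 shared regions, threshold 0.05), after tests on simulated data. Single values per library were compared by exact permutation. Alternatives were other merging rules, score and distance limits, median scaling, no variance trend, a replicate block and leaving out each library. Sequences and annotation were from RefSeq GRCm38.p6 and GENCODE vM21, and no peak lay beyond a chromosome end. The named members were those called in either fit, the 6 largest increases and decreases without overlap, the 5 tallest, those at the distance limits, the genes with most members, the longest runs and the largest change of each list.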

Additional observations from a re-analysis of the deposited data

How the results depend on the processing

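Limits: with 2 libraries a group no permutation p could pass 0.05, peak height depends on unknown depth, and a region enters with a peak in every library only. Members called higher were 2 with median scaling, 0 without a variance trend, 5 with the replicate block and from 0 to 2 when a library was left out, against 1 in the report. No member was called lower in any of these. The cause was not tested. The libraries could not be shown to be paired by number: deviations of same-numbered libraries correlated with r = 0.007 over shared regions. The number of members was 1466 beyond 100000 bp and 1289 with peaks above the pooled median score. The latter gave a CTCF share of 2.25% and turned the height contrasts of AP-1 (−0.00597) and CTCF (0.0515). The length difference from nearer intergenic regions was 0 bp among members with at least 90% unique words, an alternative chosen after seeing the data, and ranged from −2.83 to 0.50 bp when a library was left out, and was −10.75 bp with peaks above the pooled median score. When peaks within 500 bp were merged, the log2 change was 0.72 at Cwc27, 0.22 at Sep15 and 0.47 at Nnt, and the Socs6 region ranged from −1.09 to 0.0271 when a library was left out. The 3-base STAT contrast was 0.02 with peaks above the pooled median score and 0.10 over whole regions, and the height difference from nearer intergenic regions 0.03 to 0.14. The STAT6 contrast was 0.30 to 0.38 under its alternatives and the shift of the members' median 0.02 to 0.08, both always positive.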
